A study of Mus musculus with 7 samples.

Results

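The NF-kB and inflammatory secretory genes examined here were 41 mouse genes chosen by name: Ptx3 and Tnfaip3, which were higher in Lmnb1-/- than in wild type libraries in these data, and other targets, inhibitors and subunits of NF-kB with chemokines, cytokines and cytokine receptors. All 41 names were found among the 22738 gene rows of each table, and 32 passed a filter on low counts. RNA was sequenced from 3 Lmnb1-/- and 4 wild type cultures of epicardial explants. Lmnb1 encodes lamin B1, a filament protein of the inner nuclear membrane, and the study asked what it contributes to the timing of migration of these cells. Both groups came from E12.5 embryos on one mixed C57BL/6;129S4Sv/Jae;129S6/SvEvTac background and carried no other allele or agent that the labels name. Ventricles lay on gelatin for 48 hours, were taken away, and the cells left on the dish grew for another 72 hours, so every library is of cultured outgrowth, not of tissue.

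NF-kB is a family of dimeric transcription factors held in the cytoplasm by IkB proteins. Signals from receptors of TNF, interleukin 1 and microbial products lead to destruction of IkB, and the freed dimers switch on chemokines, cytokines, adhesion molecules and their own inhibitors, so that the response limits itself. Mesothelial cells, to which the epicardium belongs, are known as a source of chemokines and prostaglandins in inflamed body cavities.

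Total counts ran from 1786519 to 3066936 in Lmnb1-/- libraries and from 1024898 to 2732236 in wild type libraries. Levels are given as CPM, the count divided by the library's total in units of 1e+06 after TMM scaling, and 3 counts made 0.965 to 1.68 CPM in Lmnb1-/- libraries and 1.13 to 3.10 CPM in wild type libraries. Lmnb1 itself stood at 1.12 to 2.06 CPM in Lmnb1-/- libraries and at 184 to 239 CPM in wild type libraries. The 12 epicardial markers summed to 1969 to 2592 CPM in Lmnb1-/- and 2484 to 3241 CPM in wild type libraries, and none was at 0 throughout. The 14 macrophage and leukocyte markers summed to values that ranged from 43.4 to 669 CPM in Lmnb1-/- and from 81.6 to 381 CPM in wild type libraries. The 7 endothelial markers summed to 33.1 to 47.1 CPM in Lmnb1-/- and 25.7 to 54.8 CPM in wild type libraries. The 6 cardiomyocyte markers summed to 445 to 589 CPM in Lmnb1-/- and 401 to 785 CPM in wild type libraries, most of it from Myl7 and Tnnt2, while Myh7 was at 0 in every library. The 5 erythroid markers summed to 2.89 to 25.2 CPM in Lmnb1-/- and 3.77 to 20.2 CPM in wild type libraries. In whole cultures, fewer cells of a type and less RNA per cell cannot be told apart. Wild type replicates 1 and 3 were female by Xist, and the other libraries were male.

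Across the 41 genes, 2 were called by edgeR's quasi-likelihood test with adjustment over all 10775 tested genes: Ptx3 and Tnfaip3, both higher in Lmnb1-/- explants. That is 6.25% of the 32 tested, where 0.705% of all tested genes were called, 0.362% higher and 0.343% lower. These calls were known when the genes were chosen, so the comparison is a description and no p-values are given for the 41 genes. Among the 32, 23 log2 fold changes were above 0 and 9 below, with a median of 0.24, against -0.02 over all tested genes. Levels of the groups did not overlap for 5 of the 32 with Lmnb1-/- above wild type, Ptx3, Tnfaip3, Nfkbia, Nfkbiz and Icam1, and for 1 with Lmnb1-/- below, Cx3cl1. Over all tested genes, levels lay apart with Lmnb1-/- above in 6.36% and with Lmnb1-/- below in 6.92%. An unadjusted p under 0.05 was reached by 9 members with higher and 2 with lower levels in Lmnb1-/- explants, which is 34.4% of the 32. Over all tested genes 13.6% reached it, 6.20% higher and 7.43% lower. The counts of levels apart and of unadjusted p include Ptx3 and Tnfaip3. They too are a description, since the genes were chosen with this contrast known.

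**Figure D1:**
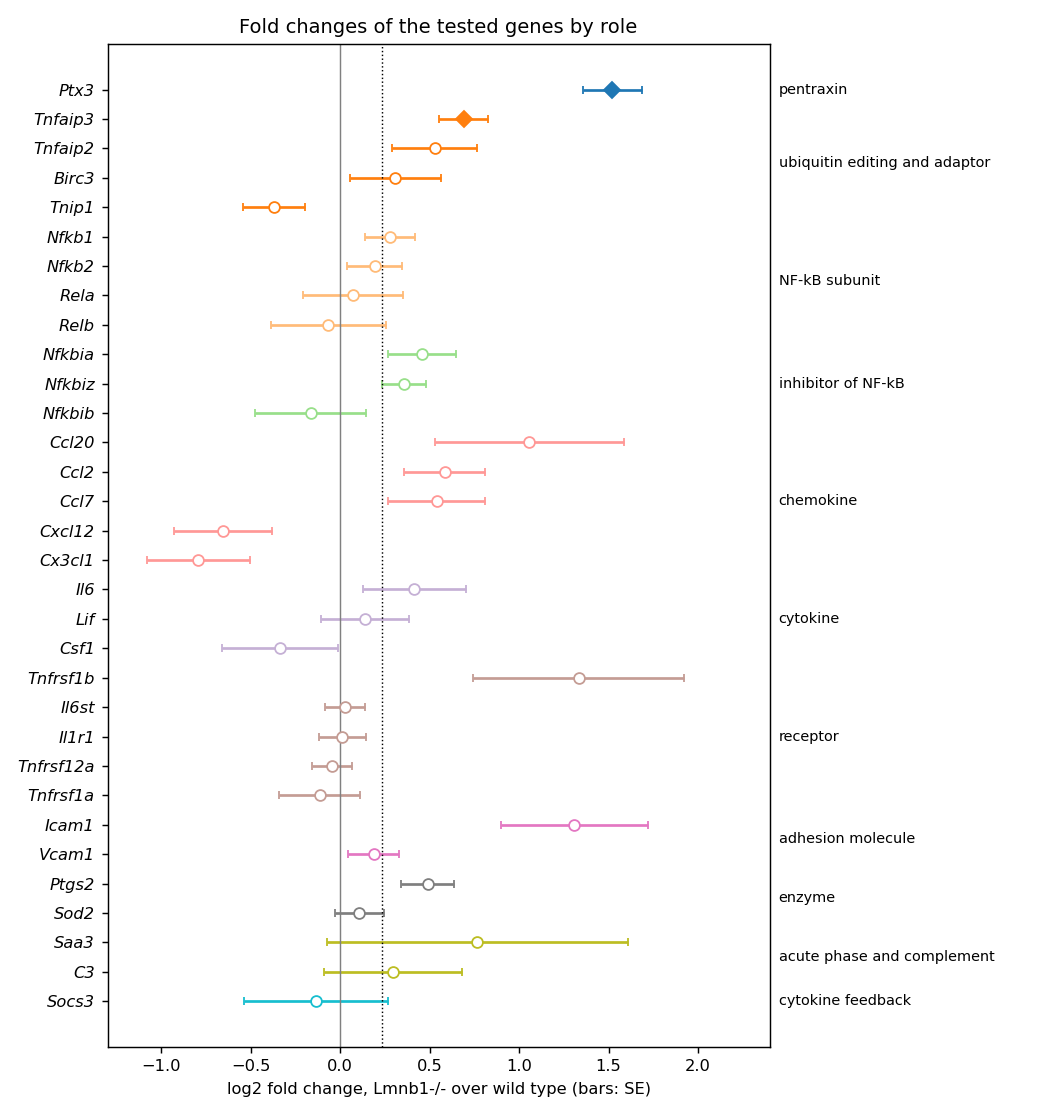
Log2 fold changes of Lmnb1-/- over wild type explants for the 32 tested genes, grouped by role, with bars for the standard error; filled diamonds are the 2 called genes, open circles the others, and the dotted line is their median of 0.24. Ptx3 lies farthest to the right at 1.52 and Cx3cl1 farthest to the left at -0.79. Tnfaip2, a TNF-induced gene, is drawn with the ubiquitin editing and adaptor genes.

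Ptx3 encodes pentraxin 3, a secreted pattern recognition protein that binds complement and is built into hyaluronan matrix. It was at 134, 116 and 133 CPM in Lmnb1-/- replicates 1 to 3, and at 58.7, 42.4, 33.1 and 43.4 CPM in wild type replicates 1 to 4. The lowest Lmnb1-/- library was well above the highest wild type library. The means were 127 ± 10.3 CPM in Lmnb1-/- (SD, n = 3) and 44.4 ± 10.6 CPM in wild type explants (SD, n = 4), a 2.87-fold rise with a log2 fold change of 1.52 (SE 0.17). It was called under all 16 alternative analyses, with log2 fold changes from 1.39 to 1.70. Lmnb1-/- replicate 1, which had the lowest summed macrophage markers of all libraries (43.4 CPM), had a Ptx3 level of 134 CPM, and the part of macrophages in the Ptx3 level was not tested.

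Tnfaip3 encodes A20, a ubiquitin-editing enzyme that shuts down NF-kB signalling and is itself an NF-kB target. Its level was 79.7, 77.4 and 70.9 CPM in the Lmnb1-/- libraries, and 43.9, 56.8, 43.3 and 47.7 CPM in the wild type libraries. Again every Lmnb1-/- library exceeded every wild type library. The means were 76.0 ± 4.58 CPM in Lmnb1-/- (SD, n = 3) and 47.9 ± 6.23 CPM in wild type explants (SD, n = 4), and the log2 fold change was 0.69 (SE 0.14). The call held under 8 of 16 alternatives. It was lost without wild type replicate 3 or 4, with log2 fold changes of 0.64 and 0.70, and without Lmnb1-/- replicate 1, 2 or 3, with 0.65, 0.68 and 0.74. It was also lost with the sum of both count columns and with a replicate block, at 0.69 in each, and within male libraries, at 0.56. Tnfaip3 had 0 counts in the second of these columns, so the sum left its own counts unchanged. The direction was the same in all 16.

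Promoter letters were examined for the kappa B consensus, the sequence NF-kB dimers bind, and for the AP-1 motif TGANTCA, bound by Fos and Jun dimers. Windows of 250 bases before the start were taken from RefSeq (GRCm38.p6), both strands were searched, and matches could overlap. Of the 41 genes 34 matched by symbol. Nfkb1, Relb, Nfkbiz, Vcam1, Ccl2, Ccl7 and Cxcl5 did not. A kappa B match lay in at least 1 window of 14 of the 34 genes (41.2%), against 8.23% of all 27025 genes in the table, and an AP-1 match in 6 of the 34 (17.6%), against 7.82% of all genes. Counted by window, the kappa B consensus was in 16 of 40 member windows (40.0%) and in 7.25% of all 32851. The genes were chosen as NF-kB targets, so this difference is a description of the choice. A match is letters only, not a site shown to be bound.

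The 4 windows below are those of the pair of called genes and of 2 negative regulators, Nfkbia and Tnip1, whose log2 fold changes lay on opposite sides of 0. Capitals mark matches. For Tnfaip3 the window holds AP-1 letters 136 bases before the start and kappa B letters at 125 and 12. For Nfkbia the kappa B match begins 29 bases before the start, and for Tnip1 overlapping matches begin at 58, 57 and 56. The Ptx3 window holds neither motif, which says only that these letters are not in this stretch. For Tnfaip3 the table has 2 starts, and the upstream one, which holds the matches, is shown.
Ptx3, chr3:66219637-66219886, plus strand: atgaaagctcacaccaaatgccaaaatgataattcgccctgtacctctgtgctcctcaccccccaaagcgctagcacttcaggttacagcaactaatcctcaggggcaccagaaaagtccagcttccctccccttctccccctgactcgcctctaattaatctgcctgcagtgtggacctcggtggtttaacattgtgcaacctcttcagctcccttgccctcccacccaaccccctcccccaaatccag
Tnfaip3, chr10:19015411-19015660, minus strand: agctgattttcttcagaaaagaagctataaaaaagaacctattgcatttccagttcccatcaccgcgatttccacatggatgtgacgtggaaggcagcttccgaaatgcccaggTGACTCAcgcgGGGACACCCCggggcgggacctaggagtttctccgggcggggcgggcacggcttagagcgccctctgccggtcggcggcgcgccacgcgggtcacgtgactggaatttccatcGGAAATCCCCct
Nfkbia, chr12:55492648-55492897, minus strand: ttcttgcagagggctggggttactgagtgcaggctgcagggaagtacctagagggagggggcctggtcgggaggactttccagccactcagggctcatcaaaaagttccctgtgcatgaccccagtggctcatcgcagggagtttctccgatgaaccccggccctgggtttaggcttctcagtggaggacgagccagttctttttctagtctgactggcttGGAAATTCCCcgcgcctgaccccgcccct
Tnip1, chr11:54962941-54963190, minus strand: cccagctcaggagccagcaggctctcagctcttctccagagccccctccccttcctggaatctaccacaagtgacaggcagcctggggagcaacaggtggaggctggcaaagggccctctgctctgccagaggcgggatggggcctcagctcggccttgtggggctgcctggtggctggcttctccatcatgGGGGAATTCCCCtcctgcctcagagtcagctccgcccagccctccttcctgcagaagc

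A group of 6 genes held ubiquitin enzymes, adaptors, an RNase and the TNF-induced gene Tnfaip2. Of these 4 passed the filter, and Tnfaip3 was the called one. Tnip1 encodes ABIN1, the adaptor that works with A20, and it lay on the other side of 0. Its levels were 32.2, 37.0 and 30.3 CPM in Lmnb1-/- libraries, and 41.3, 55.8, 41.8 and 35.8 CPM in wild type libraries. The groups overlapped through Lmnb1-/- replicate 2 and wild type replicate 4, and the log2 fold change was -0.37 (SE 0.17), not called. Tnfaip2, a TNF-induced gene, averaged 50.0 ± 17.0 CPM in Lmnb1-/- (SD, n = 3) and 35.8 ± 8.22 CPM in wild type explants (SD, n = 4), with Lmnb1-/- replicate 2 inside the wild type range. Birc3, encoding the ubiquitin ligase cIAP2, was at 11.2 to 11.9 CPM in Lmnb1-/- and 7.83 to 11.3 CPM in wild type libraries. For Birc3 16.8% of counts were in a second, unnamed count column that each table holds beside the one used here. Over all genes that column held 16.6% to 19.6% of the counts of a library, so Birc3 was near the general share. What the column holds is not stated, so the level of Birc3 is uncertain. Zc3h12a, encoding an RNase that degrades cytokine messages, and Traf1, encoding a TNF receptor adaptor, were below the filter. Zc3h12a had 28 counts over Lmnb1-/- and 22 over wild type libraries, and Traf1 had 0 and 2.

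The 4 NF-kB subunit genes showed small differences and none was called. Nfkb1, encoding p105 and p50, was at 69.1, 61.7 and 77.1 CPM in Lmnb1-/- libraries, and at 58.3, 57.9, 50.1 and 62.8 CPM in wild type libraries. Lmnb1-/- replicate 2 fell inside the wild type range, and the log2 fold change was 0.28 (SE 0.14). Nfkb2, encoding p100 and p52, had a log2 fold change of 0.19 (SE 0.16). Rela, encoding p65, the activating partner, averaged 15.9 ± 1.63 CPM in Lmnb1-/- (SD, n = 3) and 15.9 ± 5.67 CPM in wild type explants (SD, n = 4). Its log2 fold change was 0.07 (SE 0.28), and that of Relb, the partner of p52, was -0.07 (SE 0.32). For both the fitted difference was smaller than its standard error.

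Among the IkB genes, levels of Nfkbia and Nfkbiz lay apart between the groups, although neither was called. Nfkbia encodes IkB alpha, the main feedback inhibitor, and was at 35.1, 36.5 and 41.1 CPM in Lmnb1-/- libraries, and at 20.0, 23.8, 32.0 and 31.6 CPM in wild type libraries. The lowest Lmnb1-/- library was only a little above the highest wild type library, and the log2 fold change was 0.46 (SE 0.19). Nfkbiz encodes the atypical nuclear protein IkB zeta, which helps switch on a subset of NF-kB targets. Its levels were 98.7, 85.8 and 95.1 CPM in Lmnb1-/- libraries, and 77.9, 78.5, 65.5 and 71.7 CPM in wild type libraries. The log2 fold change of Nfkbiz was 0.36 (SE 0.12), and it stayed between 0.30 and 0.41 under the 16 alternatives. Nfkbib, encoding IkB beta, was at 5.61 to 7.71 CPM in Lmnb1-/- and 6.40 to 8.86 CPM in wild type libraries. Nfkbie, encoding IkB epsilon, was below the filter with 25 counts over Lmnb1-/- and 18 over wild type libraries.

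**Figure D2:**
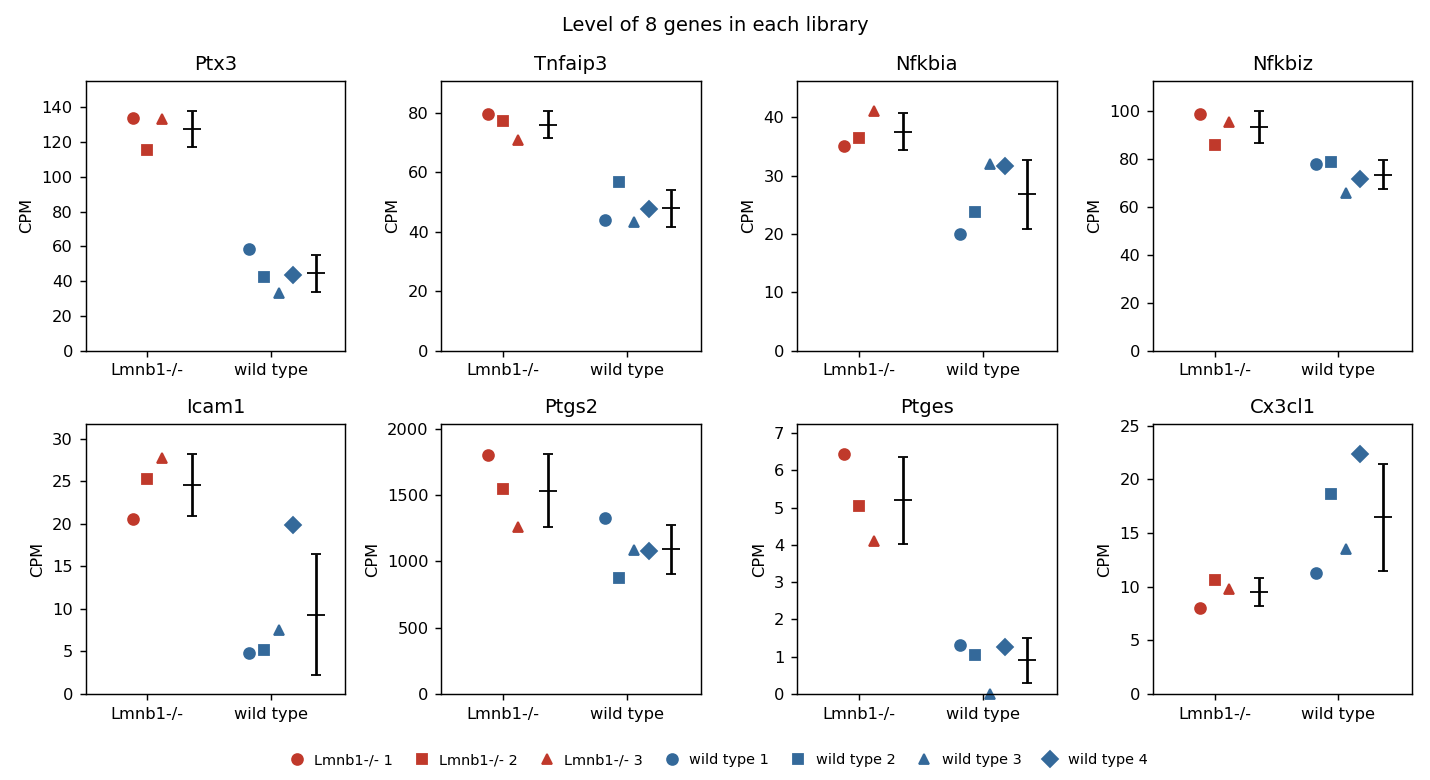
CPM of 8 genes in each of 3 Lmnb1-/- (red) and 4 wild type (blue) libraries, with symbol shape for the replicate number and black bars for mean ± SD. Levels do not overlap between the groups except for Ptgs2, and Cx3cl1 is the gene with the Lmnb1-/- libraries below.

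Of 8 chemokine genes 5 were tested, and none was called. Cxcl12 encodes a homeostatic chemokine that guides progenitors and vessels. It was at 520, 589 and 395 CPM in Lmnb1-/- libraries, and at 651, 535, 1157 and 807 CPM in wild type libraries. Lmnb1-/- replicate 2 exceeded wild type replicate 2, and the log2 fold change was -0.66 (SE 0.27). Cx3cl1, encoding the membrane-tethered chemokine fractalkine, was at 8.04, 10.7 and 9.76 CPM in Lmnb1-/- libraries, and at 11.3, 18.6, 13.6 and 22.3 CPM in wild type libraries. Its ranges lay apart by a small gap, and the log2 fold change was -0.79 (SE 0.29). Under the 15 alternatives that tested Cx3cl1, the value ran from -1.15 (within male libraries) to -0.56.

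Ccl2 and Ccl7 encode chemokines that attract monocytes, and in RefSeq (GRCm38.p6) they are next to each other among protein-coding genes. Ccl2 was at 64.3, 94.8 and 94.0 CPM in Lmnb1-/- libraries, and at 68.7, 46.5, 37.3 and 68.7 CPM in wild type libraries. Ccl7 was at 19.0, 29.7 and 21.1 CPM in Lmnb1-/- libraries, and at 20.4, 13.4, 9.79 and 19.0 CPM in wild type libraries. Both genes were highest in Lmnb1-/- replicate 2 and lowest in wild type replicate 3, and for both Lmnb1-/- replicate 1 lay inside the wild type range. Their log2 fold changes were 0.58 (SE 0.22) and 0.54 (SE 0.27). Ccl20, which attracts cells bearing CCR6, was at 5.79 to 9.25 CPM in Lmnb1-/- and 1.13 to 9.30 CPM in wild type libraries. The neutrophil chemokine genes had few counts. Cxcl1 had 14 counts over Lmnb1-/- and 10 over wild type libraries, Cxcl2 had 2 and 3, and Cxcl5 had 0 in every library.

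Of 4 cytokine genes 3 were tested, with log2 fold changes on both sides of 0, and none was called. Csf1, the growth factor of macrophages, was at 797, 551 and 497 CPM in Lmnb1-/- libraries, and at 909, 1119, 503 and 588 CPM in wild type libraries. Its groups overlapped widely, with a log2 fold change of -0.34 (SE 0.32). Il6, encoding interleukin 6, averaged 10.2 ± 1.32 CPM in Lmnb1-/- (SD, n = 3) and 7.65 ± 1.73 CPM in wild type explants (SD, n = 4), and wild type replicate 4 reached 10.1 CPM. Lif, another ligand of the gp130 family, had a log2 fold change of 0.14 (SE 0.25). Il11, of the same family, was below the filter with 8 counts over Lmnb1-/- and 13 over wild type libraries. Socs3, which blocks gp130 signalling as feedback, was at 4.82, 11.2 and 9.25 CPM in Lmnb1-/- libraries, and at 6.09, 10.3, 5.65 and 14.3 CPM in wild type libraries, and these overlapped.

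Of 6 receptor genes 5 were tested and none was called, with a median log2 fold change of 0.01. Il6st, encoding the shared receptor chain gp130, was at 389, 493 and 425 CPM in Lmnb1-/- libraries, and at 401, 417, 471 and 418 CPM in wild type libraries. The groups overlapped, and the log2 fold change was 0.03 (SE 0.11). Il1r1, the signalling receptor of interleukin 1, had 0.01 (SE 0.13), and Tnfrsf12a, encoding the TWEAK receptor Fn14, had -0.04 (SE 0.11). Tnfrsf1a, the main TNF receptor, averaged 29.2 ± 6.27 CPM in Lmnb1-/- (SD, n = 3) and 32.5 ± 9.89 CPM in wild type explants (SD, n = 4). Tnfrsf1b, the second TNF receptor, was at 26.0, 3.93 and 11.3 CPM in Lmnb1-/- libraries, and at 3.91, 6.20, 3.39 and 9.70 CPM in wild type libraries. Lmnb1-/- replicate 1 alone was far above the rest, and without it the log2 fold change of Tnfrsf1b was 0.42 in place of 1.33. Il1rl1, the interleukin 33 receptor, had 4 counts over Lmnb1-/- and 2 over wild type libraries.

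Of the adhesion genes, Icam1 and Vcam1 encode ligands of leukocyte integrins. Icam1 was at 20.6, 25.2 and 27.7 CPM in Lmnb1-/- libraries, and at 4.78, 5.17, 7.53 and 19.8 CPM in wild type libraries. The groups did not overlap, but wild type replicate 4 came close to the lowest Lmnb1-/- library. The log2 fold change was 1.31 (SE 0.41), not called, and without wild type replicate 4 it was 2.02 and called. Within male libraries it was 0.76 and not called. Wild type replicate 4 also had the highest wild type sum of macrophage markers, 381 CPM. Lmnb1-/- replicate 1, with a macrophage sum of 43.4 CPM, had 20.6 CPM of Icam1, and the part of macrophages in the Icam1 level was not tested. Vcam1 was at 354, 406 and 405 CPM in Lmnb1-/- libraries, and at 385, 241, 355 and 373 CPM in wild type libraries, which overlapped, with a log2 fold change of 0.19 (SE 0.14).

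Prostaglandin E2 is made by cyclooxygenase 2, encoded by Ptgs2, and then by the inducible synthase encoded by Ptges. Ptgs2 was at 1805, 1543 and 1257 CPM in Lmnb1-/- libraries, and at 1327, 875, 1088 and 1077 CPM in wild type libraries. Wild type replicate 1 exceeded Lmnb1-/- replicate 3, and these were the only libraries that overlapped. The log2 fold change was 0.49 (SE 0.15), not called, and it was 0.60 and called without wild type replicate 1. That was the only call of Ptgs2 under 16 alternatives, in which its value ran from 0.36 to 0.65. Ptges was below the filter, with counts of 20, 9 and 8 in Lmnb1-/- libraries and 3, 1, 0 and 3 in wild type libraries. Every Lmnb1-/- library was higher, at 4.11 to 6.43 CPM against 0 to 1.30 CPM in wild type libraries. Pooled, this was 37 counts against 7, a ratio of 6.41 and its exact 95% interval, for counting error alone, ran between 2.82 and 17.0. For Ptges 17.0% of the counts fell in the second column, near the 16.6% to 19.6% over all genes of a library. Without the filter it was called, as the only further member, at a log2 fold change of 2.55. Sod2, the mitochondrial superoxide dismutase, had a log2 fold change of 0.11 (SE 0.14), and 7.98% of its counts fell in the second column.

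The acute phase gene Saa3 and the complement gene C3 overlapped widely between the groups. Saa3, encoding serum amyloid A3, was at 1.93, 16.8 and 21.6 CPM in Lmnb1-/- libraries, and at 4.78, 4.13, 4.14 and 15.6 CPM in wild type libraries. Lmnb1-/- replicates 2 and 3 and wild type replicate 4 were high and the other libraries low. The summed macrophage markers were 43.4, 279 and 669 CPM in the Lmnb1-/- libraries, and 138, 81.6, 97.9 and 381 CPM in the wild type libraries, so the same 3 libraries led in both; the part of macrophages in the Saa3 level was not tested. C3 was at 14.1, 29.7 and 18.5 CPM in Lmnb1-/- libraries, and at 6.96, 21.7, 15.8 and 23.6 CPM in wild type libraries. Neither gene was called, with log2 fold changes of 0.77 (SE 0.84) for Saa3 and 0.29 (SE 0.39) for C3. The Saa3 value was 1.53 without wild type replicate 4, 1.35 without Lmnb1-/- replicate 1 and 0.19 without Lmnb1-/- replicate 3. It was 1.28 with the replicate block, 0.19 within male libraries and 0.15 with limma voom.

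**Figure D3:**
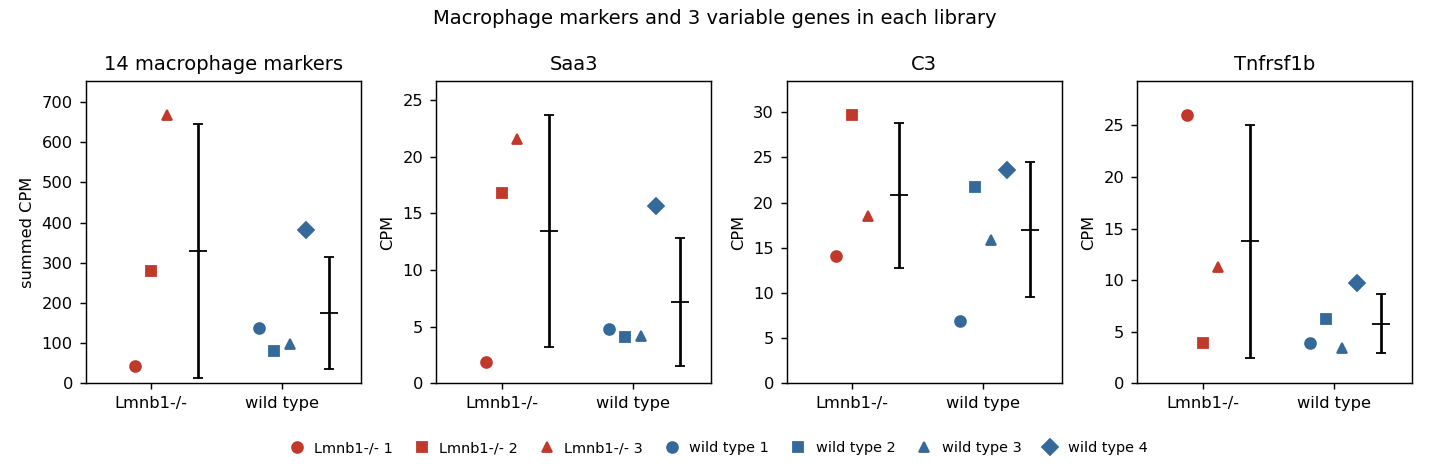
Summed CPM of 14 macrophage and leukocyte markers and CPM of Saa3, C3 and Tnfrsf1b in each Lmnb1-/- (red) and wild type (blue) library, with mean ± SD in black. Lmnb1-/- replicate 1 is lowest for the marker sum (43.4) and Saa3 (1.93) but highest for Tnfrsf1b (26.0).

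Levels of different genes were compared per kilobase of exon, with exon lengths from GENCODE M21. A length is the union of all annotated exons of a gene, which can exceed its main transcript. The annotation used for the counts is not given, so places in the order are approximate. Ptgs2 stood highest in both groups, at 335 CPM per kb in Lmnb1-/- and 238 CPM per kb in wild type explants. Tnfrsf12a, Csf1 and Cxcl12 came next in wild type, at 204, 148 and 96.3 CPM per kb. Ptx3 was at 47.5 CPM per kb in Lmnb1-/- and 16.6 CPM per kb in wild type explants, which placed it 6th and 11th among the 41. The ranges of neighbours in the wild type order overlapped in 38 of 40 pairs, so most adjacent places are not distinguished by these libraries. Among genes above 1 CPM per kb, the exception was Cxcl12, whose lowest wild type library was above the highest for Ccl2.

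**Figure D4:**
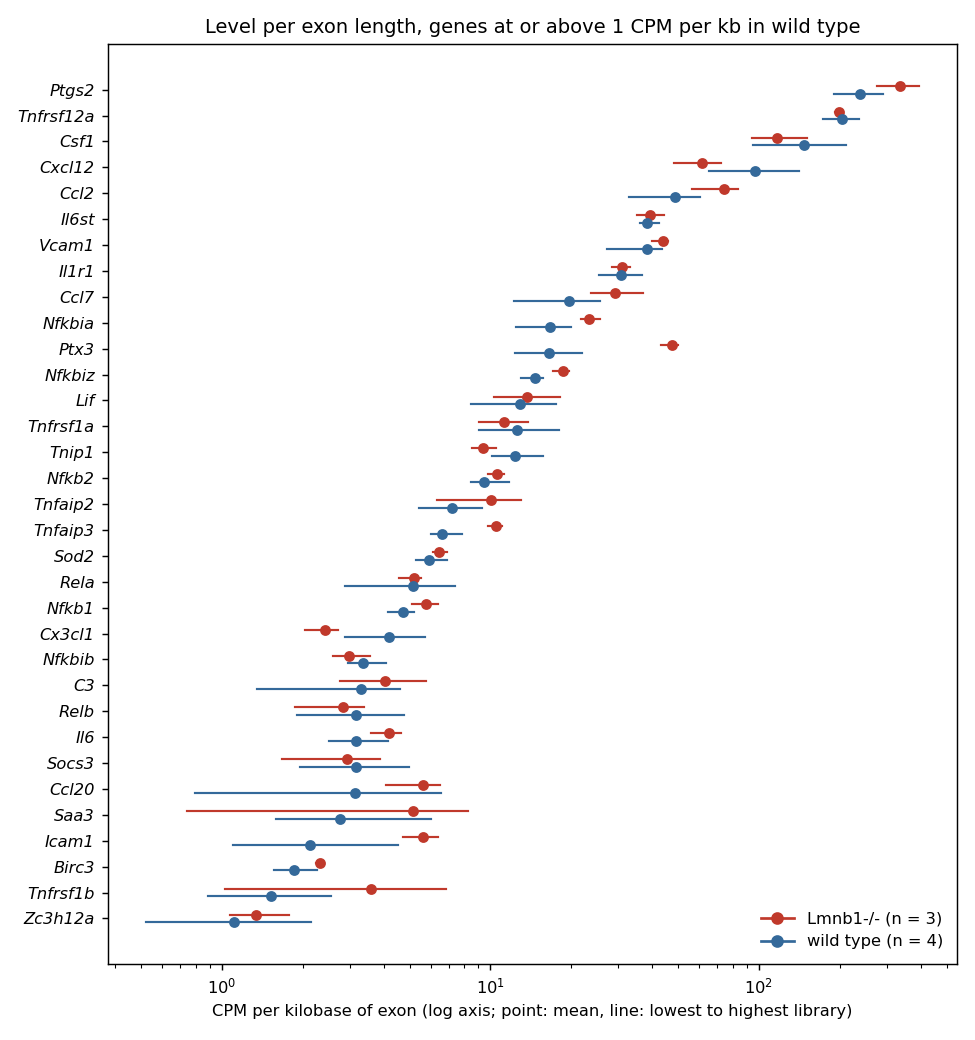
Mean CPM per kilobase of exon (points) with the lowest and highest library (lines) on a log axis, for the 33 genes at or above 1 CPM per kb in wild type, Lmnb1-/- in red above wild type in blue. On the log axis Ptx3 has the widest gap between group means of the genes drawn, 47.5 against 16.6 CPM per kb.

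Within the groups, the libraries did not share out the extremes evenly. Wild type replicate 4 was the highest wild type library for 12 of the 32 tested members (37.5%), against 21.6% of all tested genes, and wild type replicate 3 was the lowest for 13 (40.6%), against 20.2%. In Lmnb1-/- explants each library was highest for 9 to 12 members. These are counts over genes that share libraries, given as a description.

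Genes of the same pathways outside the 41 were taken from 10 lists of 223 names, of which 222 were in the tables and 133 were tested. None was called in either direction by edgeR at an adjusted p under 0.05 (quasi-likelihood, Benjamini-Hochberg over all genes), nor by limma voom. DESeq2, which gave an adjusted p to only 87 of the list genes, called none of them. At an unadjusted p under 0.05 there were 16 of the 133 with higher and 12 with lower levels in Lmnb1-/- explants. Among all tested genes 6.20% were higher and 7.43% lower at that threshold. The median log2 fold change of the list genes was -0.04. The number of calls was 7 without wild type replicate 1 (Ereg, Has2, Klf6, Cd44, C1s, Il17rd and Nptx2), and 2 within male libraries, Cd44, encoding a hyaluronan receptor, and Serping1, encoding the C1 inhibitor. Over all genes 279 of 10618 were called without wild type replicate 1, and 95 of 10614 within male libraries.

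In the NF-kB signalling core, 0 of 30 tested genes passed, and 1 was higher and 4 lower at an unadjusted p under 0.05. Log2 fold changes were above 0 for 7 of the 30, against 47.6% of all tested genes, with a median of -0.13. Otud7b, encoding the deubiquitinase Cezanne, averaged 96.0 ± 8.01 CPM in Lmnb1-/- (SD, n = 3) and 131 ± 18.7 CPM in wild type explants (SD, n = 4), at adjusted p = 0.160 by edgeR. Tab3, encoding an adaptor of the kinase TAK1, averaged 38.3 ± 3.41 CPM in Lmnb1-/- and 27.4 ± 3.55 CPM in wild type explants, at adjusted p = 0.214 by edgeR. Of 23 intracellular NF-kB targets 0 passed and the median was -0.01, with 3 higher and 3 lower at an unadjusted p under 0.05. Klf6 and F3, encoding a zinc finger factor and tissue factor, both had log2 fold changes of 0.37 (adjusted p = 0.148 and 0.238 by edgeR).

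Of 38 other secreted inflammatory genes only 10 were expressed enough to test, and 0 passed. Their median was 0.21 on the log2 scale, and 3 were higher at an unadjusted p under 0.05, where 6.20% of all tested genes were higher. Ereg, encoding the EGF receptor ligand epiregulin, averaged 98.3 ± 2.60 CPM in Lmnb1-/- (SD, n = 3) and 68.3 ± 11.3 CPM in wild type explants (SD, n = 4; adjusted p = 0.108 by edgeR). Plaur, encoding the urokinase receptor, averaged 141 ± 6.02 CPM in Lmnb1-/- and 114 ± 19.0 CPM in wild type explants (adjusted p = 0.313 by edgeR). Among hyaluronan matrix partners of Ptx3, 0 of 8 passed, with 3 higher at an unadjusted p under 0.05, against 6.20% of all tested genes. Has2, a hyaluronan synthase, averaged 34.0 ± 8.88 CPM in Lmnb1-/- (SD, n = 3) and 19.5 ± 5.36 CPM in wild type explants (SD, n = 4), at adjusted p = 0.147 by edgeR. Tnfaip6, encoding TSG-6, which cross-links hyaluronan with pentraxin 3, averaged 34.5 ± 3.61 CPM in Lmnb1-/- and 23.0 ± 6.89 CPM in wild type explants, at adjusted p = 0.285 by edgeR. Levels of the groups overlapped for Has2, Tnfaip6 and Cd44, the 3 with an unadjusted p under 0.05. Complement and pentraxin genes had 0 of 11 past the threshold and 2 in each direction at an unadjusted p under 0.05. Their median was -0.43, with the neuronal pentraxin gene Nptx2 at -1.20 and the complement gene C2 at 0.99 (adjusted p = 0.247 and 0.279 by edgeR). Levels were low for both. Nptx2 was at 2.89 to 4.49 CPM in Lmnb1-/- and 3.48 to 11.4 CPM in wild type libraries, which overlapped. C2 was at 5.15 to 7.85 CPM in Lmnb1-/- and 2.11 to 3.77 CPM in wild type libraries, where 3 counts made 1.13 to 3.10 CPM.

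The other prostaglandin genes gave 0 of 11 past the threshold and 2 higher at an unadjusted p under 0.05. Ptgs1, encoding cyclooxygenase 1, averaged 219 ± 16.6 CPM in Lmnb1-/- (SD, n = 3) and 180.5 ± 3.17 CPM in wild type explants (SD, n = 4), at adjusted p = 0.243 by edgeR. Ptges3, encoding the cytosolic synthase, had a log2 fold change of 0.30 (adjusted p = 0.338 by edgeR). Receptors of the TNF, interleukin and Toll-like families had 0 of 17 past the threshold and 1 in each direction at an unadjusted p under 0.05, with Il17rd at -0.62 and Eda2r at 0.33 (adjusted p = 0.137 and 0.251 by edgeR). In gp130, JAK and STAT3 signalling 0 of 11 passed and 1 was lower at an unadjusted p under 0.05. Socs2, a cytokine feedback gene, was at 17.9 to 20.3 CPM in Lmnb1-/- and 26.1 to 33.1 CPM in wild type libraries (adjusted p = 0.182 by edgeR), and Il11ra1, the interleukin 11 receptor, had a log2 fold change of -0.41 (adjusted p = 0.448 by edgeR).

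Chemokine receptors had 0 of 4 past the threshold and none at an unadjusted p under 0.05. Cxcr7, a scavenging receptor for the Cxcl12 protein, averaged 38.6 ± 5.48 CPM in Lmnb1-/- (SD, n = 3) and 29.2 ± 6.01 CPM in wild type explants (SD, n = 4), at adjusted p = 0.385 by edgeR. Cx3cr1, the fractalkine receptor of macrophages, was at 4.18, 26.4 and 70.4 CPM in Lmnb1-/- libraries, and at 15.7, 6.20, 8.66 and 49.3 CPM in wild type libraries. It was high in the same 3 libraries as the summed macrophage markers, among which it was not counted, and the part of macrophages in its level was not tested. Leukocyte adhesion genes had 0 of 8 past the threshold and 1 in each direction at an unadjusted p under 0.05, with Cd47 at 0.45 and Itga4, the integrin partner of Vcam1, at -0.72 (adjusted p = 0.326 and 0.344 by edgeR).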

How the data were processed

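RNA was extracted from 7 epicardial explant cultures and sequenced as TruSeq RNA v2 libraries, per the labels' protocols. TopHat, edgeR and the mm9 build are named in the submitters' processing notes. Their versions, the annotation and how reads were counted are not given in the sources used here. The authors deposited 1 table of raw counts per library, with 22738 rows and 2 unnamed count columns. The first was used; a sum of both was an alternative. What the second column holds is not stated.

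Counts were filtered with filterByExpr, scaled by TMM and fitted with edgeR 4.0.16 (quasi-likelihood, robust; R 4.3.3), Lmnb1-/- over wild type, with Benjamini-Hochberg adjustment over all genes at 0.05. A standard error is the absolute log2 fold change over the square root of F. Alternatives used DESeq2 1.42.0 and limma 3.58.1. The procedure was also run on simulated counts with the same replicate spread for every gene, so that run does not describe its error rates in these data. Members and lists were chosen with earlier results of these data known. Every member was accounted for. Values in every library were given for Ptx3, Tnfaip3, members whose ranges lay apart and the highest by CPM in each role, and for some others chosen after their values were seen. From each pathway list the 2 genes of smallest p were named. The labels do not say whether replicates were separate embryos, so p-values measure the spread between these libraries. The kit is not strand specific, so overlapping genes cannot be told apart.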

Additional observations from a re-analysis of the deposited data

Results flagged for a closer look

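Among the 4 wild type libraries, replicate 4 stood apart for Saa3, at 15.6 CPM, while the other wild type libraries were at 4.13 to 4.78 CPM. It was the only one of 32 members for which a wild type library lay this far from the rest. Chance flags about 1 in 20, so 1 flag among 32 is not more than chance gives. Lmnb1-/- libraries were not screened in this way. The same library had the highest wild type sum of macrophage markers, 381 CPM, and the part of macrophages was not tested.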

How the results depend on the processing

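Ptx3 was called under all 16 alternatives. The number of members called was 2, and it became 1 with the sum of both count columns (Ptx3) and 1 within male libraries (Ptx3). Leaving out single libraries gave 1 to 3. All genes called were 76. They became 180 without a count filter, 187 with DESeq2, 44 with the sum of both columns, and 3 to 279 on leaving out single libraries. Without wild type replicate 1, 2, 3 or 4 they were 279, 40, 4 and 28, and without Lmnb1-/- replicate 1, 2 or 3 they were 4, 3 and 13. Calls among the pathway lists were 0, and 2 within male libraries, and 0 to 7 on leaving out single libraries. The causes were not tested. The median log2 fold change of tested members stayed between 0.17 (male libraries) and 0.30. Rela, Relb, Il6st, Il1r1, Lif, Tnfrsf1a, Tnfrsf12a, C3 and Socs3, none of them called, changed sign under at least 1 alternative. Among single members, 495 of 499 values moved by less than the spread between replicates. The other 4 were Icam1 with the replicate block (2.04) and without wild type replicate 4 (2.02), Cx3cl1 within male libraries (-1.15), and Tnfrsf1b without Lmnb1-/- replicate 1 (0.42).

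Correlations between libraries cannot settle whether the replicate numbers pair them. Deviations of same-numbered libraries correlated at 0.26, -0.16 and -0.09 for numbers 1, 2 and 3, and not every library correlated best with its own number. With the replicate block 2 members were called, Ptx3 and Icam1, 77 genes in all and 0 of the lists, and the median was 0.30. Depth limits the 9 members below the filter, which had at most 50 counts over all 7 libraries and no fitted fold change in the filtered test.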
